A study of Mus musculus with 6 samples.

Results

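The chemokine system was examined in mouse liver through every measured gene whose symbol marks it as a chemokine or a chemokine receptor (Ccl, Cxcl, Xcl, Cx3cl, Ccr, Cxcr, Xcr, Cx3cr or Ackr followed by a number). The pattern found 55 genes among the 22180 named genes of the array, 34 ligands and 21 receptors. Among the ligands were 19 CC and 13 CXC chemokines besides Xcl1 and Cx3cl1, and among the receptors 17 that signal and 4 atypical ones. Ccl19, the 4 Ccl21 genes and Ccl27b shared their probe sets with other symbols and are not among the 55.

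Whole liver of 6 mice was hybridised to 1 whole-transcript array each. The 3 controls were wild-type C57BL/6J mice. The 3 ErbB4-/- mice (ErbB4-/-HER4heart) lack ErbB4, a receptor tyrosine kinase that binds neuregulins, throughout the body apart from the heart, where overexpressed transgenic ErbB4 lets them survive past the embryo, and this line was backcrossed to C57BL/6J. All 6 mice, the controls included, received a single injection of the liver carcinogen DEN on postnatal day 14, and the sex of the mice and the dose are not given in the labels. The protocol has every mouse dissected 32 weeks later, whereas the treatment labels give the controls 32, 33 and 34 weeks and the ErbB4-/- mice 35, 36 and 37 weeks, in the order of their replicate numbers. On the second reading age and genotype move together, and the weeks of the groups do not overlap. Fits below that also hold the labelled week extend its trend over replicate order from group to group. They cannot be read as a correction for age. Values are log2 signals, and a difference is the ErbB4-/- mean minus the control mean, so that a negative one means a lower signal in ErbB4-/- liver. The values of a group are listed in the order of its replicate numbers. Signals of different probe sets are not comparable with each other, and without a measured background level here a dim gene may be near it.

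Chemokines are small secreted proteins that guide leukocytes along gradients through receptors coupled to G proteins. CXC chemokines with an ELR motif draw neutrophils through Cxcr2, a trio of interferon-induced CXC ligands draws activated T and NK cells through Cxcr3, and many CC chemokines draw monocytes, eosinophils or lymphocytes. Atypical receptors (Ackr) bind chemokines without classical G protein signalling and take them up. In liver, hepatocytes, Kupffer cells, stellate cells and the sinusoidal endothelium all make chemokines, and the neutrophil ligands in particular are induced by interleukin-1 and tumour necrosis factor through NF-kappaB.

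The sequences shown here are the 120 bases before the RefSeq start (build GRCm38.p6) of Cxcl1, the ligand gene with the most negative difference, of Cxcl2 and Cxcl3, its relatives in the same group of genes, and of Cxcl13, the ligand gene with the next most negative difference. Capitals mark the letters GGG, any 2 bases and TTTCC on either strand, a form of the NF-kappaB (kB) site, in the first 3 sequences. In the last they mark TATAAA, the letters of a TATA box. Cxcl3 also holds TATAAA, 30 bases before its start, and there it is left in lower case.
Cxcl1 (chr5:90891125-90891244, plus strand): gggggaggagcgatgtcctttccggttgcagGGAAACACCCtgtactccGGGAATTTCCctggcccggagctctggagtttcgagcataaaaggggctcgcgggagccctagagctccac
Cxcl2 (chr5:90903779-90903898, plus strand): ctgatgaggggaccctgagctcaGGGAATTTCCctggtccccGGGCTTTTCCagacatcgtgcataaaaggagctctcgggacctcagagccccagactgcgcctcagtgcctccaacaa
Cxcl3 (chr5:90785981-90786100, plus strand): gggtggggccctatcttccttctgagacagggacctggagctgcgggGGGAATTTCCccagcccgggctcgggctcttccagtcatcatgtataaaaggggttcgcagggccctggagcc
Cxcl13 (chr5:95956819-95956938, plus strand): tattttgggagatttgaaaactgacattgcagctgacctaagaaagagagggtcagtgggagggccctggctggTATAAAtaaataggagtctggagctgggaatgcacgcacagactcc

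The letters GGGAATTTCC, the match of that pattern on the plus strand of Cxcl1, began 71 bases before the start of Cxcl1, 97 before that of Cxcl2 and 73 before that of Cxcl3. Cxcl2 held a further match, GGGCTTTTCC, 78 bases before its start, and Cxcl1 one on the other strand, written GGAAACACCC here, 89 bases before. Among all 32851 RefSeq promoter windows of 300 bases, searched on both strands, 0.0883% held GGGAATTTCC and 1.63%, these included, held the wider pattern. Promoter windows were given for 41 of the 55 members, and GGGAATTTCC was found in those of Cxcl1, Cxcl2, Cxcl3 and the receptor gene Ccr3. The wider pattern was found in the windows of these genes and also in those of Ccl9 and Ccl20. The window of Cxcl13 held neither form, and TATAAA, which 13.6% of all windows hold on either strand, began 46 bases before its start. A match is a run of letters and not a measured site.

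No chemokine or receptor gene passed the test of ErbB4-/- against control liver. Of the 55, 0 had an adjusted p under 0.05 (limma, Benjamini-Hochberg over 22180 genes), where 0.00451% of all genes, 1 gene, passed. At an unadjusted p under 0.05 there were 3 members lower in ErbB4-/- liver, Cxcl1, Cxcl13 and Ccl6, and 1 higher, Ccl27a. The same share among all genes was 2.94% lower and 2.77% higher. The largest differences were downward, as 5 members, 9.09% of them, were lower by at least 0.58 on the log2 scale (1.5-fold), Cxcl1, Cxcl13, Ccl6, Cxcl16 and Cxcr2, against 1.56% of all genes, and Cxcl11 was higher by as much, against 0.442%. Most members differed little: 41 of 55 differed by less than 0.25.

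Ligands and receptors taken apart had medians near 0. The median difference of the 34 ligands was -0.0073, with 17 lower and 17 higher means. The 21 receptors had a median of -0.053, with 12 lower, 8 higher and 1 equal. Over all genes the median was 0.015, and 44.8% had a lower mean. The 20 ligands whose mean level was at or above the median of all genes had a median difference of -0.16, with 14 lower (47.6% of all genes at that level had a lower mean), and 20.0% of them were lower by at least 0.58 against 2.73% of all genes at that level. The 14 dimmer ligands had a median of 0.051, with 3 lower.

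**Figure D1:**
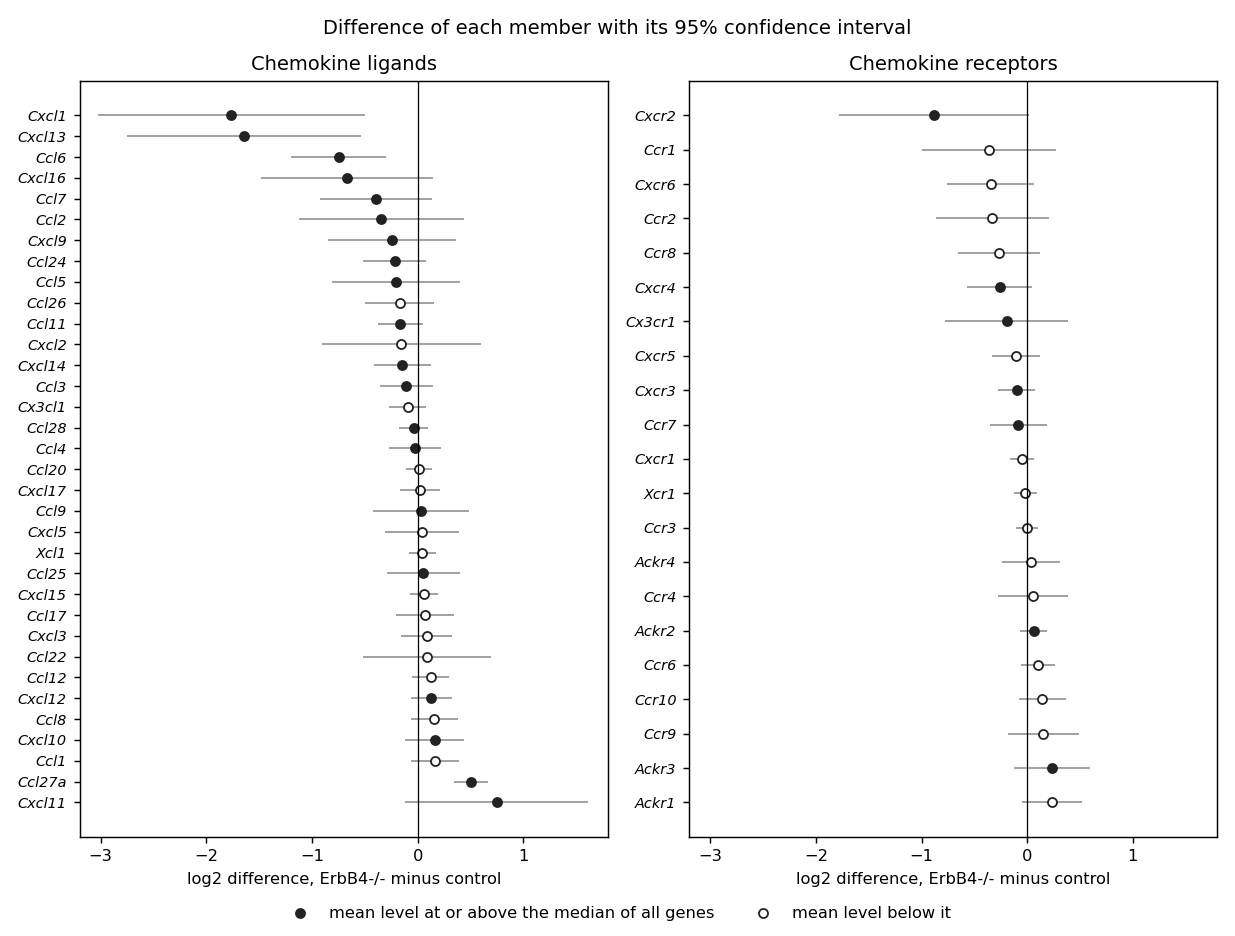
Log2 difference (ErbB4-/- minus control, horizontal axis) of each of the 34 ligands and 21 receptors, with its unadjusted 95% confidence interval from limma; filled points are members at or above the median level of all genes. Cxcl1 and Cxcl13 lie farthest to the left at -1.76 and -1.65, while most members lie close to 0.

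Cxcl1, also called KC, the main mouse ligand of Cxcr2 in neutrophil recruitment, measured 10.32, 9.48 and 9.74 in control and 8.68, 8.58 and 6.99 in ErbB4-/- liver. Every ErbB4-/- liver lay below every control liver, and ErbB4-/- replicate 3 was far below the other two. The means were 9.85 ± 0.43 and 8.08 ± 0.94 (SD, n = 3 each). They differed by -1.76 (standard error 0.51, 95% confidence interval -3.03 to -0.50), or 3.40-fold lower (limma, adjusted p = 0.760). Without both ErbB4-/- replicate 3 and control replicate 1, which had the highest value, it was -0.98, and a fit that also held the labelled week of dissection gave -0.061 (standard error 0.74). In whole liver, fewer cells of a type and less RNA per cell cannot be told apart.

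The list of neutrophil CXC ligands holds 6 genes, of which Cxcl1, Ppbp and Cxcl2 had a lower mean and Cxcl3, Cxcl5 and Cxcl15 a higher one. Ppbp, the platelet chemokine whose product is cut to a Cxcr2 ligand, measured 5.57, 5.38 and 5.82 in control and 5.38, 4.98 and 4.95 in ErbB4-/- liver. These groups overlapped at a shared value, and the difference was -0.49 (interval -0.89 to -0.077; limma, adjusted p = 0.760). Cxcl2, or MIP-2, measured 4.90, 4.82 and 4.92 in control and 4.88, 5.25 and 4.05 in ErbB4-/- liver, so that 1 ErbB4-/- array lay above and 1 below the range of the controls. Its difference was -0.15 with an interval of -0.91 to 0.60, and it was 0.18 without ErbB4-/- replicate 3. Cxcl5, or LIX, differed by 0.041 (interval -0.31 to 0.39), Cxcl3 by 0.086 (-0.16 to 0.33) and Cxcl15, a chemokine known from lung, by 0.057 (-0.076 to 0.19). Cxcl2, Cxcl3, Cxcl5 and Cxcl15 lay below the median level of all genes, where a change in a transcript may not reach the signal. Cxcl1, Cxcl2 and Cxcl3 thus hold the same kB letters before their starts, and the deposited values differed between the groups without overlap for Cxcl1 alone of the 3.

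Cxcr2, the receptor of these ligands on neutrophils, measured 6.85, 6.09 and 6.98 in control and 5.22, 5.72 and 6.32 in ErbB4-/- liver. ErbB4-/- replicates 1 and 2 lay below all controls, and replicate 3 lay above control replicate 2. The difference was -0.88 (standard error 0.36, interval -1.78 to 0.014, limma adjusted p = 0.760), and -1.82 (standard error 0.67) in the fit with the week. Cxcl1 and its receptor therefore did not follow one order among the ErbB4-/- livers, as replicate 3 was the lowest for Cxcl1 and the highest for Cxcr2. Cxcr1, the neighbouring receptor gene, showed no overlap between the groups, yet its 6 values spanned only 4.28 to 4.37 and its difference was -0.053.

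**Figure D2:**
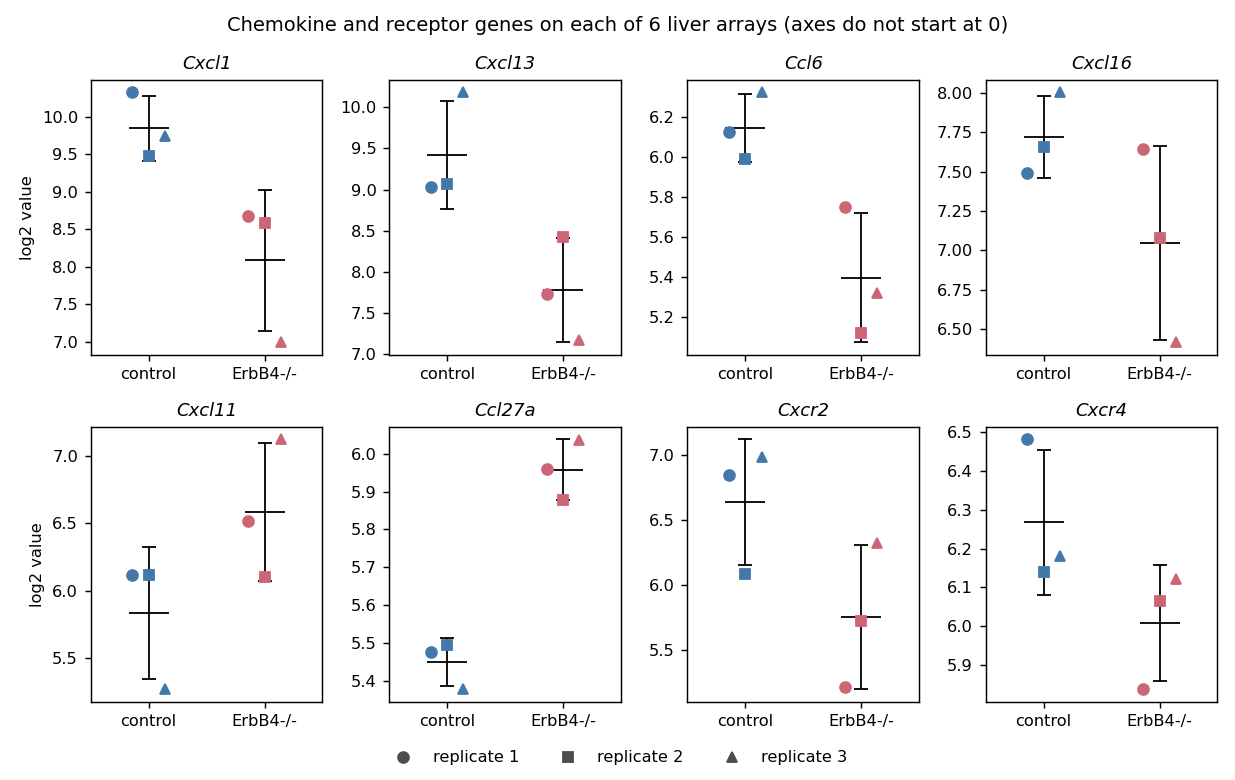
Log2 value (vertical axis, not starting at 0) of 8 chemokine and receptor genes on each array, with control in blue and ErbB4-/- in red, marker shapes for replicate numbers, and a bar with whiskers for the mean ± SD (n = 3). The groups do not overlap for Cxcl1, Cxcl13, Ccl6, Ccl27a and Cxcr4, and overlap for Cxcl16, Cxcl11 and Cxcr2.

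Cxcl13, the B cell chemoattractant that organises lymphoid follicles, measured 9.03, 9.06 and 10.18 in control and 7.74, 8.43 and 7.17 in ErbB4-/- liver. The groups did not overlap, and control replicate 3 stood above the other controls. The means were 9.43 ± 0.66 and 7.78 ± 0.63, which differ by -1.65 (standard error 0.45, interval -2.75 to -0.54), or 3.13-fold lower (limma, adjusted p = 0.760). The difference lay between -1.97 and -1.27 when any 1 array was left out, and it was -2.08 (standard error 0.99) in the fit with the week. Its receptor Cxcr5, carried by B cells and follicular helper T cells, measured 5.04, 5.21 and 4.97 in control and 4.84, 5.02 and 5.04 in ErbB4-/- liver, with a difference of -0.11 (interval -0.33 to 0.12). The Cxcr5 groups overlapped, and the gene lay below the median level of all genes.

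Cxcl16, a membrane-bound chemokine and scavenger receptor of macrophages and endothelium, measured 7.49, 7.66 and 8.0 in control and 7.64, 7.08 and 6.42 in ErbB4-/- liver. ErbB4-/- replicate 1 lay among the controls and the other two lay below them. The difference was -0.67 (interval -1.48 to 0.14), moved to -0.36 without ErbB4-/- replicate 3, and was -0.14 (standard error 0.69) in the fit with the week. Cxcr6, its receptor on liver T, NKT and NK cells, measured 4.48, 4.30 and 4.36 in control and 3.71, 4.05 and 4.34 in ErbB4-/- liver, a dim signal with a difference of -0.34 (interval -0.76 to 0.068). It was -0.18 without ErbB4-/- replicate 1 and -0.72 (standard error 0.32) in the fit with the week.

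Cxcl12, the stromal factor that holds leukocytes and stem cells in place, stayed within a narrow range on all 6 arrays. It measured 9.78, 9.77 and 9.86 in control and 9.81, 9.91 and 10.06 in ErbB4-/- liver. Its difference was 0.13 with an interval of -0.064 to 0.32, which does not reach a 1.5-fold change either way. Its signalling receptor Cxcr4 measured 6.48, 6.14 and 6.18 in control and 5.84, 6.06 and 6.12 in ErbB4-/- liver. The groups did not overlap, though control replicate 2 and ErbB4-/- replicate 3 were nearly level, and the difference was -0.26 (interval -0.57 to 0.048), or -0.15 without control replicate 1. Ackr3, the atypical receptor that takes Cxcl12 up, measured 5.29, 5.38 and 5.18 in control and 5.82, 5.30 and 5.44 in ErbB4-/- liver. Its difference of 0.24 (standard error 0.15) was 0.086 without ErbB4-/- replicate 1 and 0.60 (standard error 0.27) in the fit with the week. In all, 5 members were lower without overlap, Cxcl1, Cxcl13, Ccl6, Cxcr4 and Cxcr1, against 3.81% of all genes, and Ccl27a was higher without overlap, against 4.52%. With 1 array fewer, which makes such a separation easier to reach, 6 to 12 members were lower without overlap, the most without control replicate 2, against 6.82% to 8.47% of all genes.

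The 3 interferon-induced ligands of Cxcr3 did not move one way. Cxcl11 measured 6.12, 6.12 and 5.27 in control and 6.52, 6.10 and 7.13 in ErbB4-/- liver. Control replicate 3 was the lowest and ErbB4-/- replicates 1 and 3 were above all controls, while replicate 2 was not. The difference was 0.75 (standard error 0.35, interval -0.12 to 1.62), and 0.46 without control replicate 3. In C57BL/6 mice this gene is known to carry a frameshift that prevents a full protein. Cxcl9 measured 8.61, 7.84 and 8.61 in control and 8.31, 8.16 and 7.89 in ErbB4-/- liver, with every ErbB4-/- value inside the range of the controls and a difference of -0.24 (interval -0.85 to 0.37). Cxcl10 measured 5.15, 5.32 and 5.58 against 5.55, 5.48 and 5.50 and differed by 0.16. Cxcr3, the shared receptor on activated T and NK cells, measured 5.71, 5.67 and 5.70 in control and 5.65, 5.67 and 5.46 in ErbB4-/- liver, a difference of -0.10 (interval -0.27 to 0.076).

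Among the 19 CC ligands Ccl6 had the most negative difference. Ccl6, a rodent chemokine of macrophages and other myeloid cells also called C10, measured 6.12, 5.99 and 6.32 in control and 5.75, 5.12 and 5.32 in ErbB4-/- liver. The groups did not overlap. The means were 6.14 ± 0.17 and 5.40 ± 0.32, which differ by -0.75 (standard error 0.18, interval -1.20 to -0.30), or 1.68-fold lower (limma, adjusted p = 0.760). The fit with the week gave -0.57 (standard error 0.41). Ccl9, its close relative and neighbour, measured 10.84, 10.42 and 10.14 in control and 10.59, 10.42 and 10.49 in ErbB4-/- liver. The ErbB4-/- values of Ccl9 lay inside the range of the controls, and the difference was 0.032 (interval -0.42 to 0.48), or 0.64 (standard error 0.27) in the fit with the week. Ccr1, a receptor of both on myeloid cells, measured 3.90, 3.82 and 4.71 in control and 3.81, 3.60 and 3.93 in ErbB4-/- liver. Its difference of -0.36 was -0.080 without control replicate 3 and -1.06 (standard error 0.46) in the fit with the week, and the gene was dim on every array.

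The ligands of Ccr2, the receptor that brings monocytes out of bone marrow, had overlapping groups. Ccl2, or MCP-1, differed by -0.34 (interval -1.12 to 0.44) and Ccl7, or MCP-3, by -0.40 (interval -0.93 to 0.13), whereas Ccl12, or MCP-5, differed by 0.12. Ccr2 itself differed by -0.33 (interval -0.86 to 0.20). The inflammatory ligands that T cells, NK cells and macrophages release were nearer to 0, with Ccl5 (RANTES) at -0.21, Ccl3 (MIP-1 alpha) at -0.11 and Ccl4 (MIP-1 beta) at -0.026. The eosinophil ligands Ccl11 and Ccl24 differed by -0.16 and -0.22. Ccl25, the gut-homing ligand of Ccr9, differed by 0.055 (interval -0.29 to 0.40), and Ccl20, the ligand of Ccr6, by 0.011. Of the 15 CC ligands listed as inflammatory, all measured, 9 had a lower and 6 a higher mean, 0 passed, and the median difference was -0.11.

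Ccl27a, a ligand of Ccr10 known from skin, had the smallest p of the family. It measured 5.48, 5.49 and 5.38 in control and 5.96, 5.88 and 6.04 in ErbB4-/- liver, all ErbB4-/- arrays above all controls. The difference was 0.51 (standard error 0.065, interval 0.35 to 0.67), or 1.42-fold higher (limma, adjusted p = 0.549). This probe set had values identical on all 6 arrays to those of 2 probe sets annotated to Ccl27a and near-identical gene copies together, so its signal cannot be given to Ccl27a alone. A second probe set with the symbol Ccl27a only measured 4.69, 4.84 and 4.42 in control and 4.41, 4.83 and 5.30 in ErbB4-/- liver, and these groups overlapped with a difference of 0.19. Ccr10 measured 4.22, 4.20 and 4.05 in control and 4.22, 4.22 and 4.46 in ErbB4-/- liver, a difference of 0.14.

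The ligand and receptor axes of T cell subsets and mucosal surfaces were dim or near 0. Ccl17 and Ccl22, which dendritic cells make for Ccr4 on type 2 and regulatory T cells, differed by 0.069 and 0.087, and Ccr4 by 0.052. Ccl1 and its receptor Ccr8 differed by 0.16 and -0.27, with overlapping groups for both. Ccr6, the receptor of Ccl20, differed by 0.10. Ccr9 read 3.56 on 5 arrays and 4.02 in ErbB4-/- replicate 2, so that its difference of 0.15 rested on that array. Ccl28, a second ligand of Ccr10, differed by -0.039 (interval -0.17 to 0.094), Cxcl14, made by epithelia, by -0.15 (interval -0.42 to 0.12), Cxcl17, of mucosal surfaces, by 0.025, and Ccl26, a relative of the eosinophil ligands, by -0.17. All these intervals included 0.

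Chemokine genes lie in groups, and the differences are given here in chromosome order; whether neighbours differ from each other was not tested. The CXC group of chromosome 5 runs Cxcl5, Ppbp, Pf4, Cxcl3, Cxcl15, Cxcl1 and Cxcl2 in RefSeq order. Only Cxcl1 and Ppbp among these 7 had an interval that did not include 0. Pf4, a platelet chemokine whose symbol, like that of Ppbp, falls outside the family pattern, differed by -0.12 (interval -0.43 to 0.20). In one CC group of chromosome 11, Ccl2, Ccl7 and Ccl11 had lower and Ccl12, Ccl8 and Ccl1 higher means, and all 6 intervals included 0. In the other, Ccl6 stood at -0.75 between Ccl9 at 0.032 and Ccl3 at -0.11.

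**Figure D3:**
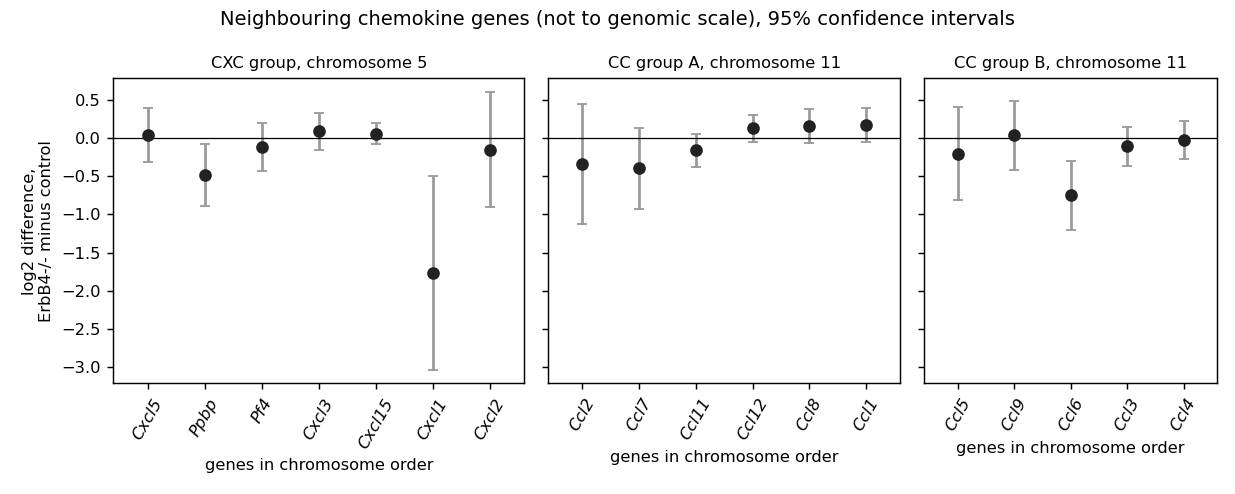
Log2 difference (ErbB4-/- minus control, vertical axis) with unadjusted 95% confidence intervals for chemokine genes of 3 genomic groups, set in chromosome order and not to scale. Cxcl1 at -1.76 and Ccl6 at -0.75 are the lowest points of their groups. The interval of Cxcl1 overlaps those of Ppbp and Cxcl2 and not those of Cxcl5, Pf4, Cxcl3 and Cxcl15. That of Ccl6 overlaps those of Ccl5, Ccl9 and Ccl3 and not that of Ccl4.

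The remaining receptors were mostly dim. Of the 17 signalling receptors 12 had a lower mean, 4 a higher one and Ccr3 the same value of 3.10 on all 6 arrays, with a median difference of -0.10. Cx3cr1, the fractalkine receptor of monocytes, measured 6.05, 6.05 and 5.97 in control and 6.11, 6.08 and 5.29 in ErbB4-/- liver. Its difference of -0.20 rested on ErbB4-/- replicate 3 and was 0.076 without it, and its ligand Cx3cl1 differed by -0.10. Ccr7, which leads dendritic and T cells to lymph nodes, measured 5.55, 5.59 and 5.47 in control and 5.28, 5.66 and 5.43 in ErbB4-/- liver, a difference of -0.084. Xcr1 and its ligand Xcl1, the axis of cross-presenting dendritic cells, differed by -0.018 and 0.045. All 4 atypical receptors had a higher mean, with differences of 0.24 for Ackr1, the Duffy antigen of venules, 0.060 for Ackr2, a scavenger of inflammatory CC ligands, 0.24 for Ackr3 and 0.031 for Ackr4. None of these 4 passed, and each overlapped between the groups.

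The deposited values of many of these genes repeat between arrays. At 2 decimals, 14 of the 55 members, 25.5%, had the same value on 3 or more of 6 arrays, against 34.1% of all genes. Ackr2, for example, read 6.43, 6.35 and 6.48 in control and 6.48 on all 3 ErbB4-/- arrays. A narrow interval for such a gene describes equal numbers and not a precise measurement of its transcript.

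Genes that act beside the chemokines were taken from lists, in which 0 genes passed (limma, adjusted p under 0.05). The lists were drawn up with earlier results of these data known, so their counts are descriptions and not tests. Of 23 measured genes of chemokine receptor signalling, 21 had a lower mean and the median difference was -0.18. Rac2, the GTPase of leukocyte migration, measured 8.0, 8.19 and 8.21 in control and 7.58, 7.17 and 7.55 in ErbB4-/- liver. Rgs1, which damps chemokine receptors, measured 6.74, 6.61 and 7.01 in control and 5.72, 6.16 and 5.02 in ErbB4-/- liver. Both were without overlap between the groups, with differences of -0.70 and -1.16. In this list 8 of 23 were lower without overlap, against 5.73% of all genes at or above the median level, where 22 of the 23 lay. The list of rolling, adhesion and crossing of the vessel wall had a median of -0.24 over 18 genes, 14 of them lower, 3 higher and 1 equal. Its genes with the smallest p were the integrin chains Itgal and Itgb2, at -0.43 and -0.76, the endothelial ligand Vcam1 at -1.01 and the selectin ligand Selplg at -1.30.

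Among 14 measured inducers of chemokine genes, cytokines and parts of NF-kappaB, 11 had a lower mean and the median was -0.12. Il1b, the interleukin-1 beta gene, measured 8.80, 8.61 and 9.38 in control and 7.84, 7.76 and 7.06 in ErbB4-/- liver, and Il1a 7.35, 7.34 and 7.96 against 7.19, 6.52 and 5.54. As for Cxcl1, both were lowest in ErbB4-/- replicate 3 and did not overlap between the groups. That array was also the lowest for 2626 of 11090 genes at or above the median level, and a link of Il1a or Il1b to Cxcl1 was not tested. Nfkbiz, a nuclear cofactor of NF-kappaB, differed by -1.09 and the subunit gene Rel by -0.72, while Tnf and Ifng, both dim, differed by 0.093 and -0.084. Of 13 measured proteases and glycan genes that cut or hold chemokines, 11 had a lower mean. The heparan sulfate proteoglycan gene Sdc4 differed by -0.39 and the neutrophil collagenase gene Mmp8 by -2.03 (interval -3.64 to -0.42). Mmp8 varied widely among the controls, at 7.97, 5.38 and 7.13. It is also among the neutrophil markers below, as some lists share genes.

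Related genes outside the symbol pattern all had lower means, 6 of 6, with a median of -0.38. Gpr182, an endothelial receptor that binds chemokines, measured 7.32, 7.51 and 7.79 in control and 7.39, 6.56 and 6.31 in ErbB4-/- liver. Ccrl2, which presents chemerin, measured 5.36, 5.58 and 5.96 against 5.44, 5.0 and 4.86, and Cmklr1, the chemerin receptor, 5.42, 5.52 and 5.57 against 5.08, 5.29 and 5.32. Only Cmklr1 of these 3 had no overlap, at a difference of -0.28.

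Marker lists of the cells that make or carry these genes had lower group means in ErbB4-/- liver. The ranges over arrays did not overlap for the neutrophil, macrophage, monocyte and dendritic cell, and platelet lists, and overlapped for the other lists. Over genes, the median difference was -1.26 in the neutrophil and -0.74 in the macrophage list. It was only -0.085 in the monocyte and dendritic cell list and -0.097 in the platelet list. Lower by at least 0.58 were 12 of 13 neutrophil and 13 of 15 macrophage markers. In the monocyte and dendritic cell list this held for 1 of 8, Ly6c2, and in the platelet list for 1 of 6, Itgb3. The part of these cells in the differences of the chemokine and receptor genes was not tested. The mean of 13 neutrophil markers ranged from 5.43 to 7.46 in control and from 4.91 to 5.23 in ErbB4-/- liver, with 13 of 13 lower and 3 below the median level of all genes. Ly6g, a defining surface marker of neutrophils, ranged from 3.68 to 4.76 in control and from 2.90 to 3.31 in ErbB4-/- liver. Control replicate 2 had the lowest control mean of the list, as for Cxcl1 and Cxcr2. ErbB4-/- replicate 3 had the highest mean of its group, as for Cxcr2, whereas it was the lowest for Cxcl1. The mean of 15 Kupffer cell and macrophage markers ranged from 8.49 to 8.73 in control and from 7.25 to 8.07 in ErbB4-/- liver, with 15 of 15 lower. ErbB4-/- replicate 3 was lowest there, as for Cxcl1, Cxcl13 and Cxcl16, while Ccl6 was lowest in ErbB4-/- replicate 2 and Cxcr2 in ErbB4-/- replicate 1. Of all 11090 genes at or above the median level, 2626 were lowest in ErbB4-/- replicate 3. Endothelial markers ranged from 8.19 to 8.58 and from 7.07 to 8.20 (10 of 11 lower), stellate cell markers from 7.44 to 7.54 and from 6.91 to 7.49 (9 of 10 lower), and monocyte and dendritic cell markers from 6.24 to 6.57 and from 5.99 to 6.22 (6 of 8 lower).

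T and NK cell markers ranged from 4.64 to 4.82 in control and from 4.63 to 4.71 in ErbB4-/- liver (9 of 12 lower, 9 below the median level), and B and plasma cell markers from 6.07 to 6.37 and from 5.60 to 6.10 (5 of 7 lower, 4 below it). Among the latter the immunoglobulin genes Ighm and Jchain differed by -1.09 and -1.53, Jchain without overlap. The other 5 B and plasma cell markers differed by -0.13 to 0.11, 2 of them with a higher mean. The median difference of that list was -0.072. Platelet markers, which include Pf4 and Ppbp, ranged from 5.34 to 5.56 and from 5.14 to 5.28 (5 of 6 lower). Hepatocyte markers, which define the labelled tissue, were bright on every array, from 13.38 to 13.47 in control and from 13.31 to 13.38 in ErbB4-/- liver (9 of 9 lower).

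**Figure D4:**
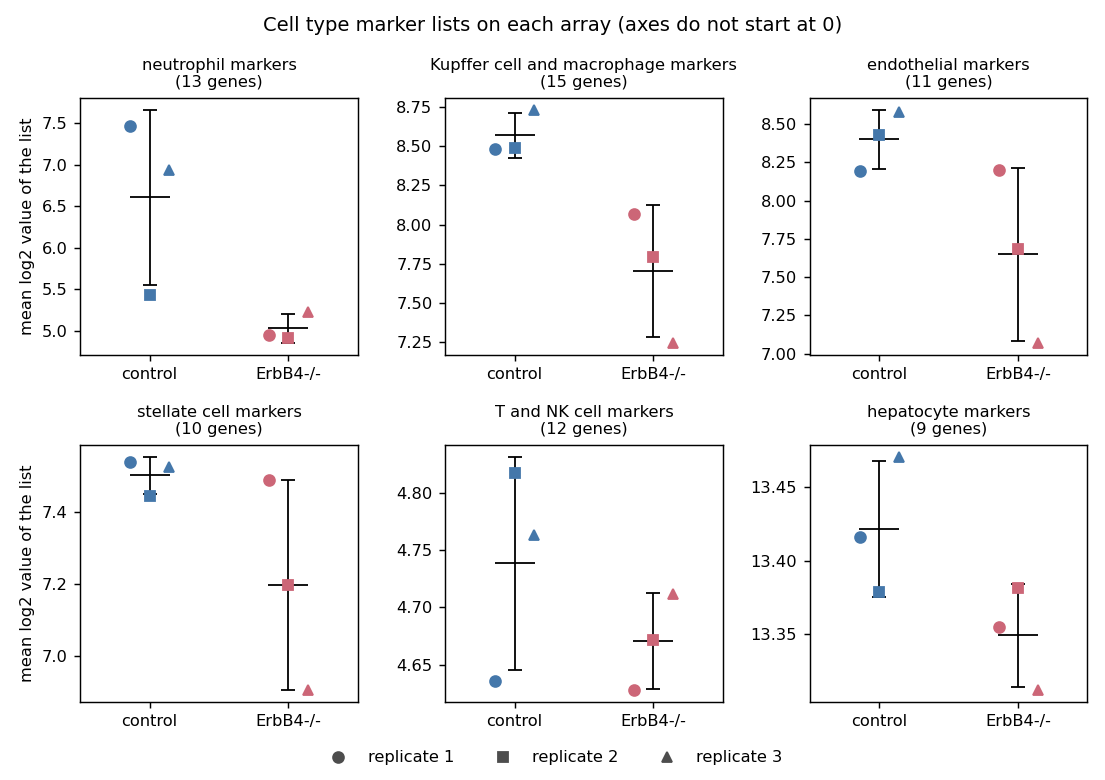
Mean log2 value of 6 marker lists (vertical axis, not starting at 0) on each array, control in blue and ErbB4-/- in red, with a bar and whiskers for the mean ± SD (n = 3). Neutrophil and macrophage lists separate the groups, and the ErbB4-/- array with the lowest macrophage and endothelial means is replicate 3.

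Erbb4, the targeted gene, measured between 5.42 and 5.73 in control and between 4.75 and 5.61 in ErbB4-/- liver, so this probe set does not check the labels. Correlations between arrays lay between 0.983 and 0.994. Leaving out any 1 array kept at least 4 of the 5 members lower by 0.58 or more. Ccl6, Cxcl1, Cxcl13 and Cxcr2 stayed below that mark each time, and Cxcl16 did not without control replicate 3 or ErbB4-/- replicate 3. No member was higher by as much without either of these arrays. Over these comparisons 1.24% to 2.01% of all genes were lower by 0.58 or more.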

How the data were processed

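The deposited table holds 41345 probe sets with log2 values that the authors had already processed; background correction, normalization and summarisation are not given in the sources used here, and the log base was read from the values, whose maximum is 14.37. Probe sets with exactly 1 symbol in the platform annotation were kept (23521), and the one with the highest mean stood for a gene, which left 22180 genes. Groups were compared in limma 3.58.1 (R 4.3.3; functions lmFit and eBayes, two-sided tests) with genotype as the only term, adjusted by Benjamini-Hochberg over all 22180 genes at 0.05; the fit was tested on simulated data. Members, lists, the 0.58 mark and tests were chosen with earlier results of these data known. Values by array are given for members past that mark, without overlap, among the 6 brightest ligands or receptors, or paired with these; up to 4 genes of a list were named by smallest p, besides genes singled out after their values were seen (Tnf, Ifng, Pf4). With 3 arrays a group the precision is low, and the design text calls the mice biological replicates. RefSeq (GRCm38.p6) gave sequences and gene order. Figures used matplotlib 3.10.9.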

Additional observations from a re-analysis of the deposited data

How the results depend on the processing

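Settings were varied one at a time for the count of genes that passed, both medians and 26 members. No member passed under any of 16 alternatives, and the smallest adjusted p of a member in limma lay between 0.352 and 0.994. The 1 gene that passed over the table was lost (0 genes) with every row tested, with the replicate block, with the week as a covariate, without both control replicate 1 and ErbB4-/- replicate 3, at a threshold of 0.01 and without any 1 array (0 to 0). The ligand median was -0.16 over members at or above the median level, 0.014 with array weights, 0.067 with the week and 0.024 without both arrays, and lay between -0.043 and -0.0093 without 1 array. The receptor median was -0.099 with that filter, 0.014 with the week, -0.023 without both arrays, and between -0.055 and -0.016 without 1 array. Of 251 values of single members outside the fits without 1 array, 241 kept their direction. The other 10 turned: with the week, Cx3cr1 to 0.48, Cxcl10 to -0.12, Cxcl12 to -0.12, Cxcl2 to 0.45, Cxcl9 to 0.074 and Cxcr3 to 0.054; without both arrays, Cx3cr1 to 0.088, Cxcl2 to 0.19 and Cxcl9 to 0.0038; and with array weights Cxcl2 to 0.012. Without 1 array or both, direction turned for Ccl9 (-0.13 to 0.23), Cxcl9 (-0.50 to 0.0038), Ccr7 (-0.19 to 0.0055), Cx3cr1 (-0.34 to 0.088), Cxcl2 (-0.41 to 0.19), Cxcl3 (-0.011 to 0.16) and Cxcl5 (-0.096 to 0.18). The cause was not tested. Samples with the same replicate number correlated at -0.10, 0.034 and -0.050 in their deviations, and those with different numbers between -0.077 and 0.10. With 3 arrays a group such values cannot decide whether the numbers pair the mice. With the replicate block 5 members were lower and 1 higher at an unadjusted p under 0.05 (limma), against 3 and 1 without it. Without 1 array these were 2 to 6 lower and 1 to 3 higher, and with the week 1 and 1. An alternative pseudocount had no use on log2 values.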

Other observations

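Probe sets annotated to several symbols were left out of the report's counts, and 33 of them held a symbol of the Ccl19, Ccl21 or Ccl27 genes. The 13 that include Ccl19, a ligand of Ccr7 in lymphoid tissue, had differences between -0.32 and -0.061, all of them lower and none without overlap. The 9 for the Ccl21 genes, further ligands of Ccr7, had differences between 0.024 and 0.22, also all overlapping. The 11 for Ccl27 genes had differences between -0.33 and 0.51, and 2 were without overlap. Several of these probe sets repeat each other exactly, with 9 distinct rows among the 13 of Ccl19, 5 among the 9 of Ccl21 and 8 among the 11 of Ccl27, so they are not separate measurements.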
